A study of Mus musculus with 6 samples.

Results

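The replication-dependent histone genes are the 67 protein-coding genes of the mouse genome build GRCm38 whose symbols begin with Hist1h, Hist2h, Hist3h or Hist4h, out of 21938 protein-coding genes on the chromosomes used. They comprised 6 genes for the linker histone H1, 18 for H2A, 18 for H2B, 12 for H3 and 13 for H4. The Hist1h genes (54) lie within 2.22 Mb of chromosome 13, the Hist2h genes (10) on chromosome 3, the Hist3h genes (2) on chromosome 11 and Hist4h4 (1) on chromosome 6. A gene was taken to have a promoter peak in a library when a peak summit lay within 1 kb of one of its annotated starts.

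The measurements were 6 libraries of ATAC-seq, an assay in which a transposase cuts accessible DNA and tags it for sequencing. Each library was made from 3 proximal tubules of 200 to 300 um dissected by hand from S1, the stretch of proximal tubule that follows the glomerulus. All mice were wild-type male C57BL/6 from Taconic, 7 weeks old at operation. The Sham group (3 libraries) had a sham operation and the UNx group (3 libraries) had a unilateral nephrectomy, the surgical removal of 1 kidney, and both were sampled at 24 h, so the comparison asks what losing a kidney does to open chromatin in this part of the tubule. Whether the libraries stem from different mice is not stated, and the p-values therefore measure only the spread between these libraries.

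Replication-dependent histone genes supply the histones that package newly made DNA, and their mRNA is made mainly in S phase. They lack introns, and their mRNAs end in a conserved stem-loop, bound by SLBP, in place of a poly(A) tail. Many H2A and H2B genes stand head to head and share the DNA between their starts. Their transcription is coordinated by NPAT, a target of cyclin E and CDK2, together with promoter factors such as NF-Y at CCAAT boxes, POU2F1 (OCT1) at octamers and HINFP at the H4 promoter element.

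The promoters themselves show what the family shares beyond its symbols. RefSeq promoter sequences (GRCm38.p6, 250 bases before to 50 after the start) were matched for 62 of the 67 genes. No entry was matched for Hist2h2be, Hist2h4, Hist1h3f, Hist1h2bc and Hist1h3a. The sequences below are those of the regions discussed later, with 1 promoter whose letters occur more than once in the genome. They run 5′ to 3′ on the gene's own strand. Capitals mark every match, on either strand, to 4 motifs: the CCAAT box (CCAAT), the letters of a TATA box (TATAAA), the octamer (ATTTGCAT) and the core of the H4 element (GGTCCG). No motif contains another.
Hist3h2a promoter, chr11:58954435-58954734, + strand: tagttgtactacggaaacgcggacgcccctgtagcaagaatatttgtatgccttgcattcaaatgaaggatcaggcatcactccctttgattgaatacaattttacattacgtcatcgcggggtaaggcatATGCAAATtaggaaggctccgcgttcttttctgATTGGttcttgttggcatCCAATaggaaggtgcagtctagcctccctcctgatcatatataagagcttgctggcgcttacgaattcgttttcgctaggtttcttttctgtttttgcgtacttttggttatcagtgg
Hist1h2bl promoter, chr13:21716134-21716433, - strand: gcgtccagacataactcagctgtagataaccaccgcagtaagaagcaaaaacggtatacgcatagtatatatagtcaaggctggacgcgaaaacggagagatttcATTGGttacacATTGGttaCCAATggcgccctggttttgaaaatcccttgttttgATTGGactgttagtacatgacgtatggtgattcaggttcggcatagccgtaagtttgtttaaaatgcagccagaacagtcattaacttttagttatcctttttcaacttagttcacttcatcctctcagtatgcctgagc
Hist1h2af promoter, chr13:23533625-23533924, + strand: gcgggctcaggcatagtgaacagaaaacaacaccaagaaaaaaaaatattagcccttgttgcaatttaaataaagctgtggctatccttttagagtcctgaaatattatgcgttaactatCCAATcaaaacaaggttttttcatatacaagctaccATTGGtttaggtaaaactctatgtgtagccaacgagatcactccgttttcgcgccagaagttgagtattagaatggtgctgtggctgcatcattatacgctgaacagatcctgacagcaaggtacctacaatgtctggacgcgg
Hist1h4h promoter, chr13:23530794-23531093, + strand: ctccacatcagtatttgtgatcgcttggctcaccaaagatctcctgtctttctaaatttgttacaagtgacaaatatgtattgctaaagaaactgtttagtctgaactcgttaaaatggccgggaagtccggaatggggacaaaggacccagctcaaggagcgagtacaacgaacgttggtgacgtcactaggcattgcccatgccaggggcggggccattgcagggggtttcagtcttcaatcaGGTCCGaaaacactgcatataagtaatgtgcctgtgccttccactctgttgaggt
Hist4h4 promoter, chr6:136804382-136804681, - strand: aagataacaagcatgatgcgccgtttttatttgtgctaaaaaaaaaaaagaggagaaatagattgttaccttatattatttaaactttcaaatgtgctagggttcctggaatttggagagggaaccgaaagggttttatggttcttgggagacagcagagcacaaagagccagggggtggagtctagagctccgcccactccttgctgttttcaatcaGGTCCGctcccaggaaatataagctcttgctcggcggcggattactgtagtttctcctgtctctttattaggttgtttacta
Hist1h3e promoter, chr13:23562336-23562635, - strand: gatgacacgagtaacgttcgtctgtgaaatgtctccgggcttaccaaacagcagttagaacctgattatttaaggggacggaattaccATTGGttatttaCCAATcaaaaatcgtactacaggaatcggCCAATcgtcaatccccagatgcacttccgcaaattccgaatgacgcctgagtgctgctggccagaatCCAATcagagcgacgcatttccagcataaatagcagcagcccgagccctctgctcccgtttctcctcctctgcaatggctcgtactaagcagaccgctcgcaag
Hist1h1c promoter, chr13:23738557-23738856, + strand: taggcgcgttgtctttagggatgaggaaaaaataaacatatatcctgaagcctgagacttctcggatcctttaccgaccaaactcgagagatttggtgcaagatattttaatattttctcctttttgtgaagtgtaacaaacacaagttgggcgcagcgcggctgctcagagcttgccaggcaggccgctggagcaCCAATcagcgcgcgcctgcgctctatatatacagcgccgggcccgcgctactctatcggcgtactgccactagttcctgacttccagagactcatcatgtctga
Hist1h2bq promoter, chr13:21810150-21810449, - strand: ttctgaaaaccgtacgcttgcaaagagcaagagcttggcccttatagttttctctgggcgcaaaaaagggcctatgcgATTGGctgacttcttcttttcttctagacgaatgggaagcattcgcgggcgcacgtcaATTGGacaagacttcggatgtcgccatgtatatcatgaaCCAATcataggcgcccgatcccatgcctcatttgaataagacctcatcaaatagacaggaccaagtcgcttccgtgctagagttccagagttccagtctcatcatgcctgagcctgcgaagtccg

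CCAAT was present in 53 of the 62 histone promoters (85.5%), beside 38.2% of 21263 protein-coding promoters of the same length. It was found in all 50 of the H1, H2A, H2B and H3 promoters and in 3 of 12 H4 promoters. The Hist3h2a promoter, for example, carries 2 matches, the nearer one beginning at position −68 from the start, and Hist1h3e and Hist1h2bl carry 4 each. GGTCCG had the opposite distribution: 11 of 12 H4 promoters held it, as did 1 H2B and 1 H3 promoter, for 21.0% of histone promoters and 10.5% of all promoters. It begins at position −32 from the RefSeq start in Hist4h4 and at −5 in Hist1h4h. The octamer was found in 7 H2A and 7 H2B promoters and in no other class, 22.6% of histone promoters against 1.66% of all, and Hist3h2a is one of the carriers. TATAAA was found in 35 histone promoters (56.5%, against 12.6%). A match is a string of letters and does not show that a factor binds.

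At the other end of the genes, a stem-loop of 6 paired bases around a 4-base loop lay within 150 bases after the stop codon in 63 of 67 genes. The search accepted only perfectly paired stems that begin with GG and loops that begin with TTT. Those letters are therefore shared by rule in the forms below. The commonest forms, with the loop in capitals, were as follows.
Form in 41 genes: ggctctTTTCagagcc
Form in 9 genes: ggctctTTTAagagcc
Form in 8 genes: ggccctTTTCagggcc
A form meeting the same letter rule was not found after Hist2h2be, Hist1h2an, Hist1h3g or Hist1h4a.

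Promoter peaks were found for a little over 50% of the histone genes, and their number differed between the groups by less than the spread of the libraries. The Sham lists held a promoter peak for 36, 34 and 37 of the 67 genes and the UNx lists for 34, 37 and 38. The ranges of the groups overlapped, with means of 35.7 ± 1.53 (SD, n = 3) in Sham and 36.3 ± 2.08 (SD, n = 3) in UNx. Between 60.2% and 63.0% of all protein-coding genes had a promoter peak in a list, against 50.7% to 56.7% of the histone genes. Of the histone genes, 33 had a peak in all 6 lists, 29 in none and 5 in 1 to 5 lists. The genes with none were 4 of 6 for H1, 9 of 18 for H2A, 8 of 18 for H2B, 5 of 12 for H3 and 3 of 13 for H4.

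**Figure D1:**
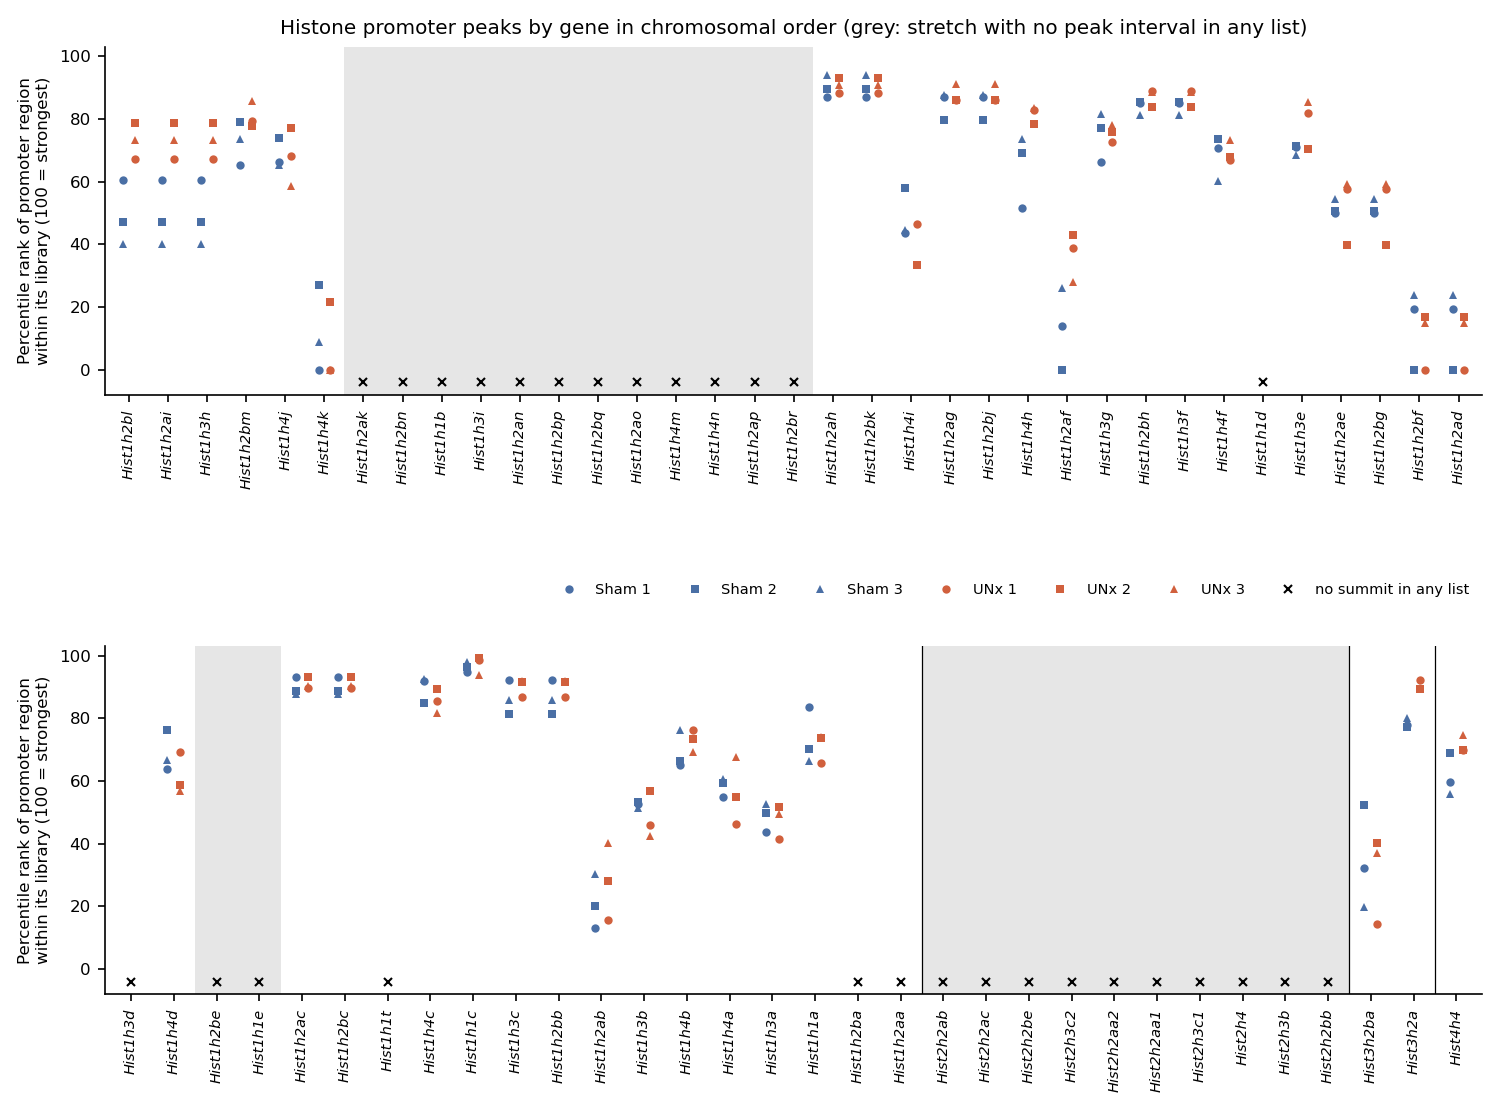
Percentile rank of the promoter region of each of the 67 histone genes (y axis, 100 = strongest peak of the library, 0 = not among its 77355 strongest) in 3 Sham and 3 UNx libraries, with genes along the x axis in chromosomal order by cluster. Crosses mark the 29 genes without a summit in any list, of which 24 lie in the 3 grey stretches; genes that share a region show the same points, as Hist1h3h does although it has a summit of its own window in 1 list only.

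Most of the genes without a peak stood together. The first of 3 long stretches with no peak interval in any list, chr13:21750676-21855120 (104 kb), holds 12 of them: Hist1h1b, Hist1h2ak, Hist1h2an, Hist1h2ao, Hist1h2ap, Hist1h2bn, Hist1h2bp, Hist1h2bq, Hist1h2br, Hist1h3i, Hist1h4m and Hist1h4n. The second, chr13:23598296-23683689 (85.4 kb), holds the starts of Hist1h1e and Hist1h2be. The last, chr3:96182971-96403181 (220 kb), holds all 10 Hist2h genes (Hist2h2aa1, Hist2h2aa2, Hist2h2ab, Hist2h2ac, Hist2h2bb, Hist2h2be, Hist2h3b, Hist2h3c1, Hist2h3c2 and Hist2h4) and the starts of Bola1 and Fcgr1. Stretches of this kind were not particular to histone genes: of 126078 gaps between neighbouring intervals in the genome, 3961 were at least as long as the first. Of the 43 histone genes outside the stretches, 33 had a peak in all 6 lists and 5 in none. The stretches were picked as long gaps without a peak that hold a histone start. A higher share with a peak outside them therefore follows from how they were picked.

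The stretches hold differing amounts of repeated sequence. In the first, 47.0% of 31-base words occur once in the genome, against 87.6% and 87.4% in the flanks, and in the second 78.4%, against 87.5% and 87.8%. In the last the share was 66.0%, against 93.7% and 67.0%. All 10 histone promoters with fewer than 50% unique words belong to genes without a peak. Such promoters were 16.1% of the histone promoters and 7.41% of all protein-coding promoters. How often the other low-uniqueness promoters had a peak was not counted. Hist1h2bq, printed above, Hist1h2ao, Hist1h2ap and Hist1h2br have no unique word in the promoter, Hist1h4m has 5.56% and Hist1h4n 5.19%. The near-identical pair Hist2h3c1 and Hist2h3c2 has 11.5% each, and Hist2h2aa1 and Hist2h2aa2 have 26.7% and 30.0%. However, 11 of the 21 matched promoters that lie inside the stretches were fully unique, among them those of Hist1h1b, Hist1h2ak, Hist1h3i and Hist1h1e. The filter behind the lists is not given in the sources used here, and its part in these stretches was not tested, so a missing peak there is not read as closed chromatin.

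The 5 other genes without a peak were Hist1h1d, Hist1h3d, Hist1h1t, Hist1h2ba and Hist1h2aa, all with fully unique promoters. Hist1h1t, Hist1h2aa and Hist1h2ba encode histones known from male germ cells. The nearest summit lay 1541 bases from Hist1h1t, 4426 from Hist1h2aa and 4732 from Hist1h2ba. For Hist1h1d and Hist1h2be the annotation mattered, because the RefSeq start lies 1770 and 35124 bases from the nearest GENCODE start. At the RefSeq starts, an alternative chosen after seeing the data, both had a peak in all 6 lists. The Hist1h1d region (chr13:23554877-23556482) stood at percentiles 52.7, 52.4 and 53.4 in Sham and 54.9, 56.9 and 54.0 in UNx. The Hist1h2be region (chr13:23585480-23586214) stood at 69.9, 67.8 and 68.4 in Sham and 70.1, 74.9 and 78.7 in UNx. In both genes the 3 UNx values lay above the 3 Sham values, and neither difference passed the test (limma, adjusted p = 0.892 and 0.558).

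Of the 5 genes with a peak in some lists, Hist1h2af was missing from Sham 2 alone. Hist1h4k had a summit in Sham 2, Sham 3, UNx 2 and UNx 3. The divergent pair Hist1h2bf and Hist1h2ad had one in Sham 1, Sham 3, UNx 2 and UNx 3. Hist1h3h had one in UNx 3 alone, at −993 from its start, inside the interval of its neighbours Hist1h2bl and Hist1h2ai. No histone gene had a peak in all 3 libraries of one group and none of the other. This pattern was rare everywhere, with 25 of 21938 protein-coding genes present in UNx alone and 12 in Sham alone. Its absence among 67 genes therefore says little about them.

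Peak strength was compared as a percentile rank within each library, so that lists of different length could be set side by side. The 38 genes with a peak fell in 29 regions, since 8 regions are shared by 2 or 3 histone genes in divergent order, with starts as close as 176 bases in Hist1h2ae and Hist1h2bg. None of the 29 regions passed the test between UNx and Sham (limma, adjusted p under 0.05), a test that 0.808% of all 74774 regions passed. An unadjusted p under 0.05 was reached by 4 of the 29, and by 1665 of the 12195 protein-coding promoter regions. The difference UNx minus Sham was above 0 in 18 regions and below 0 in 11, with a median of 0.883 percentile points, against −0.18 over protein-coding promoter regions. In 5 of the 29 (17.2%) all 3 UNx values lay above all 3 Sham values, which was true of 12.0% of all tested regions. In 0 they lay below, which was true of 11.7%. Over protein-coding promoter regions the shares were 9.50% above and 10.7% below. With RefSeq starts, which bring in Hist1h1d and Hist1h2be, the UNx values lay above in 7 of 30 regions.

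**Figure D2:**
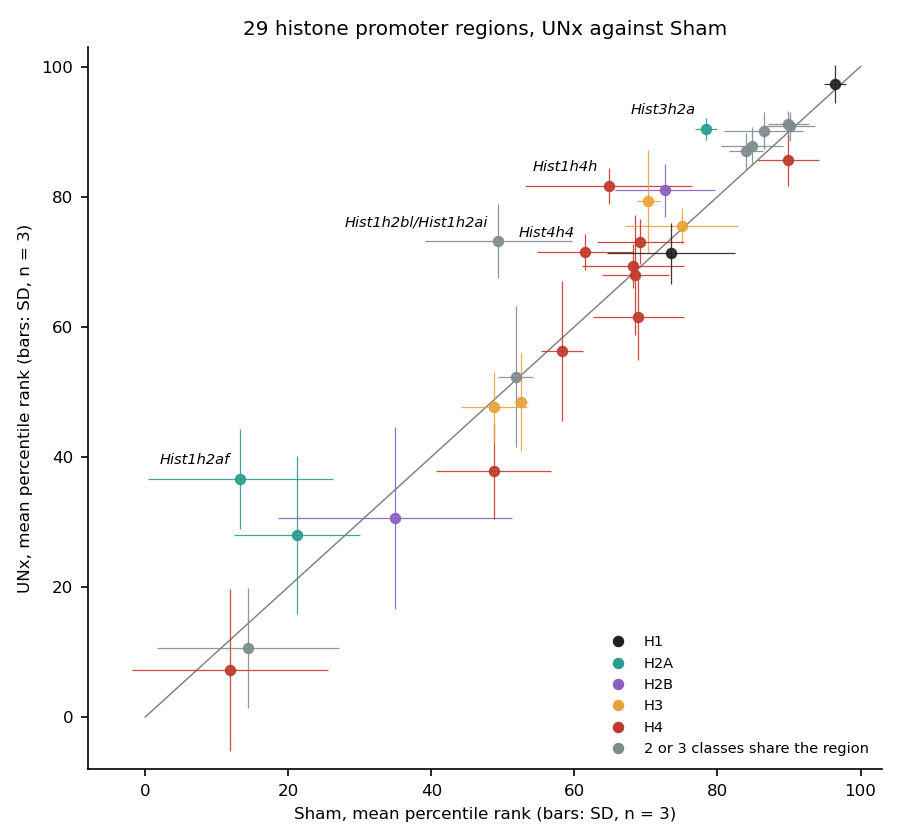
Mean percentile rank of the 29 histone promoter regions in Sham (x axis) and UNx (y axis), with SD over 3 libraries each; the grey line marks equal means and colours the histone class. The 5 named regions are those in which the values of the groups did not overlap, all above the line, and none passed the limma test.

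Hist3h2a, an H2A gene on chromosome 11, had the smallest p of the family. Its region (chr11:58953879-58955374), which also lies within 1 kb of a start of Trim17, ranked at 77.9, 77.2 and 80.1 in Sham and at 92.3, 89.4 and 89.6 in UNx. Every UNx library lay above every Sham library, by 12.0 ± 2.87 points (SE; limma, adjusted p = 0.0535), just outside the threshold. With array weights, which give less weight to libraries that fit poorly, the limma adjusted p was 0.0353. Over the 23 alternatives it ran from 0.0353 to 0.376, and array weights alone brought it under the threshold. That setting called 1457 regions in all, against 604 in the reported fit. The other gene of this cluster, Hist3h2ba, stands on the same chromosome a few kilobases away and encodes an H2B. It ranked at 32.3, 52.3 and 19.9 in Sham and at 14.5, 40.2 and 37.0 in UNx. These values overlapped widely (difference −4.27, limma adjusted p = 0.882).

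The divergent pair Hist1h2bl and Hist1h2ai, an H2B and an H2A gene whose starts are 279 bases apart, gave the largest difference. Its region (chr13:21715957-21716747) ranked at 60.5, 47.3 and 40.2 in Sham and at 67.4, 78.7 and 73.4 in UNx. The groups did not overlap, with Sham 1 nearest to UNx, and the difference was 23.8 ± 6.92 points (SE; limma, adjusted p = 0.0912).

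Hist1h2af, an H2A gene, ranked at 14.0, 0 and 25.9 in Sham and at 38.7, 43.0 and 28.1 in UNx. UNx 3 lay just above Sham 3, and the difference of 23.3 ± 11.1 points (SE) had an adjusted p of 0.268 in limma. With a window of 2.5 kb around the start the stronger region of its neighbour Hist1h3g took its place, and the difference there was 0.517. Hist4h4, the single H4 gene on chromosome 6, ranked at 59.7, 68.9 and 55.8 in Sham and at 69.9, 69.9 and 74.7 in UNx. The lowest UNx value was just above that of Sham 2 (difference 10.1 ± 5.81, SE; limma, adjusted p = 0.367). The strongest summit of this region was not the same one in the groups. It lay at −42, −65 and −43 from the start in Sham and at +577, +550 and +569 in UNx, so the ranks set a peak at the start against one inside the gene. A summit near the start was also present in the UNx lists, at −39, −34 and −64.

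Hist1h4h, an H4 gene, shows how far a value can depend on which peak stands for a promoter. Its strongest region within 1 kb (chr13:23531603-23531902) lies beyond the annotated end of the gene. There the ranks were 51.5, 69.3 and 73.5 in Sham and 83.0, 78.5 and 83.6 in UNx, without overlap (difference 16.9 ± 5.61, SE; limma, adjusted p = 0.126). The region over the start itself (chr13:23530849-23531486) ranked at 82.0, 64.0 and 67.5 in Sham and at 61.9, 77.3 and 74.9 in UNx. At the start the groups overlapped and the difference was 0.188.

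For 4 more genes the region lay beside the start. No region covered the annotated start of Hist1h3g, whose region ends just upstream of it, or that of Hist1h3h, which is listed with the Hist1h2bl region. Over the start of Hist1h4j the ranks were 0, 0 and 2.89 in Sham and 31.5, 5.87 and 8.90 in UNx, where all 3 UNx values were higher (difference 14.5, limma adjusted p = 0.369). Its stronger region upstream ranked at 66.2, 74.0 and 65.4 in Sham and at 68.1, 77.1 and 58.6 in UNx, with wide overlap. Over the start of Hist1h3c the ranks were 22.8, 38.8 and 52.2 in Sham and 45.0, 42.8 and 52.3 in UNx, again with overlap (difference 8.78).

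Among the linker histone genes, Hist1h1c had the strongest peak of the family. Its region (chr13:23738650-23740303) ranked at 94.9, 96.4 and 98.0 in Sham and at 98.6, 99.4 and 93.9 in UNx. All 6 libraries placed it above percentile 93, and the groups overlapped (difference 0.883, limma adjusted p = 0.818). The rank rests on a summit inside the gene, at +939 to +985 in the 6 lists. A weaker summit lay near the start, at −18 to −30. Hist1h1a, the other H1 gene with a peak, ranked at 83.6, 70.4 and 66.5 in Sham and at 65.9, 73.9 and 74.0 in UNx, with overlap.

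For H2A and H2B, the strongest and the weakest promoters were both divergent pairs. Hist1h2ac and Hist1h2bc, with starts 251 bases apart, share a region that ranked at 93.1, 88.8 and 87.7 in Sham and at 89.8, 93.4 and 90.3 in UNx. Hist1h2bf and Hist1h2ad, 185 bases apart, share one at 19.2, 0 and 23.9 in Sham and at 0, 17.0 and 14.9 in UNx. Both pairs showed overlapping groups. Hist1h2ab was also low, with a mean of 21.2 ± 8.77 in Sham and 28.0 ± 12.2 in UNx (SD, n = 3).

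The H3 regions had mean ranks from 48.2 to 88.3. Hist1h3c and Hist1h2bb, which share the strongest H3 region, ranked at 92.3, 81.3 and 85.8 in Sham and at 86.9, 91.6 and 91.9 in UNx. Hist1h3a ranked lowest of the H3 genes, at 43.8, 49.8 and 52.8 in Sham and 41.5, 51.8 and 49.6 in UNx. Both sets of values overlapped. Hist1h3e had the smallest p among regions held by an H3 gene alone (71.2, 71.4 and 68.4 in Sham, 81.9, 70.5 and 85.5 in UNx), with UNx 2 inside the Sham range (difference 8.93, limma adjusted p = 0.337).

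The H4 regions had mean ranks from 9.55 to 87.7. Hist1h4c was the strongest, at 92.0, 84.9 and 92.7 in Sham and 85.5, 89.5 and 81.7 in UNx. Hist1h4k was the weakest, at 0, 26.9 and 8.75 in Sham and 0, 21.6 and 0 in UNx. Hist1h4i had the largest lower value in UNx of all 29 regions, with 43.5, 58.0 and 44.6 in Sham and 46.4, 33.5 and 33.6 in UNx. UNx 1 lay inside the Sham range, and the difference of −10.9 did not pass the test (limma, adjusted p = 0.552). The 11 regions not given by value here had mean ranks between 50.5 and 90.5 and differences between −7.38 (Hist1h4d) and 8.36 (Hist1h2bm), and the groups overlapped in all 11.

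Summits sat close to the starts in most genes. In 33 of the 38 genes with a region it covered an annotated start. The strongest summit lay within 250 bases of the start in every list with a peak for 30 genes. It lay farther away, as the median over lists, in Hist1h1c (+954 bases), Hist1h4h (+705.5), Hist1h4j (−758), Hist1h3c (−991.5, at the Hist1h2bb promoter), Hist1h3f (−541, near Hist1h2bh) and Hist1h3h (−993). In Hist4h4 the strongest summit was far from the start in the UNx lists alone, as given above, and in Hist1h2bh in UNx 2 alone (−1000). Where the strongest summit was far, another one mostly lay nearer, with medians of −25.5 in Hist1h1c and +56.5 in Hist1h4h. No nearer summit was listed for Hist1h3h, for Hist1h4j in Sham 2 or for Hist1h3f in Sham 3 and UNx 2.

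**Figure D3:**
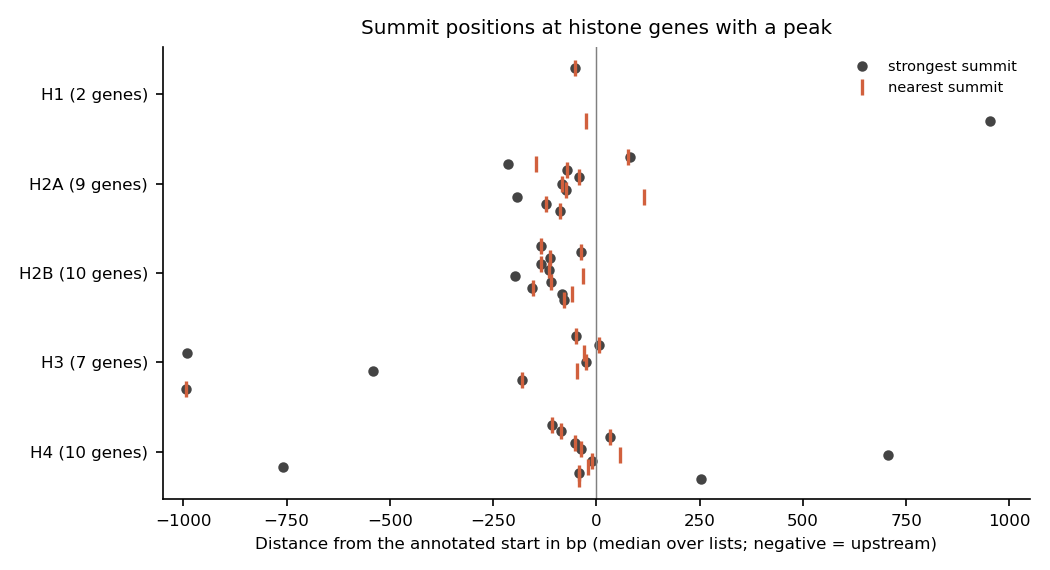
Distance of the strongest summit (dots) and the nearest summit (ticks) within 1 kb from the annotated start, as the median over the lists with a peak (x axis, bp, negative = upstream), for the 38 histone genes with a peak by class. Most pairs of marks coincide within 250 bp upstream of the start, and the strongest summits of Hist1h1c and Hist1h4h lie far downstream. The Hist4h4 dot (+254) is the midpoint of Sham summits at the start and UNx summits within the gene, not a place with a summit.

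As a group, histone promoters ranked below other promoters with a peak. The median rank of the 29 regions was 65.0, 70.4 and 66.5 in Sham and 69.1, 73.4 and 73.4 in UNx, with Sham 2 above UNx 1. Over protein-coding promoter regions the median lay between 84.3 and 87.3. The histone median lay below it, with a difference of −16.4 ± 3.82 points (SD over 6 libraries). Histone regions had a median GC content of 54.0%, against 60.5% for protein-coding promoter regions, and after the trend of rank on GC was removed the difference was −5.96 points. By class, the median over regions of the mean of all 6 libraries was 84.6 for H1, 81.2 for H2B, 74.8 for H3, 67.4 for H4 and 61.3 for H2A, where shared regions count in each class.

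**Figure D4:**
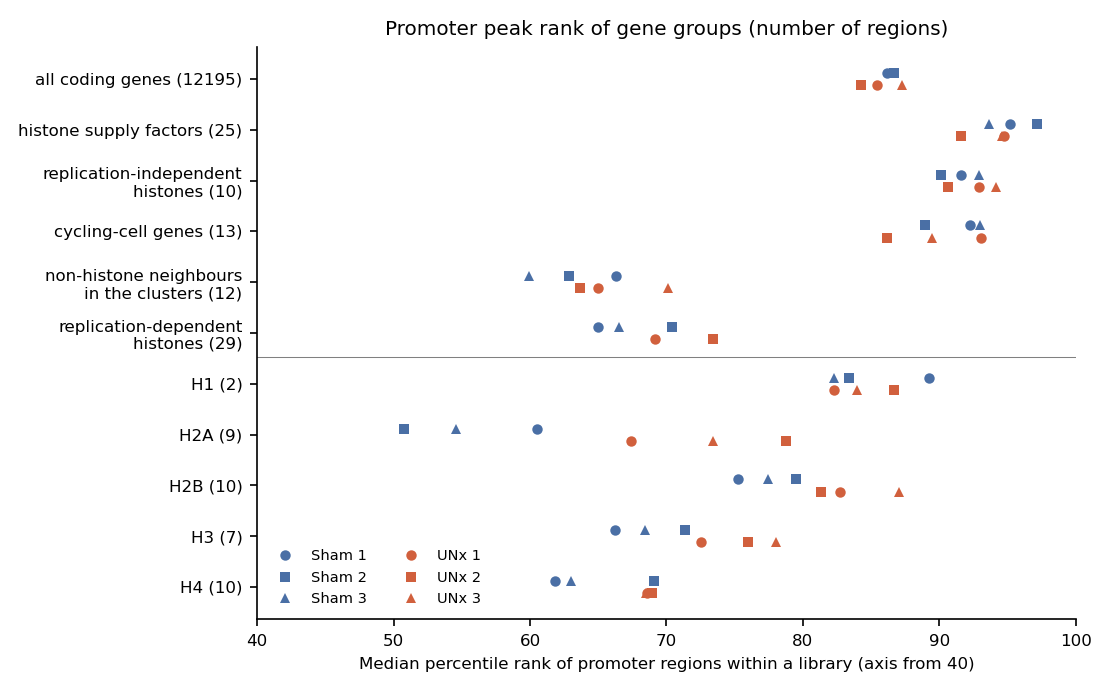
Median percentile rank of promoter regions (x axis, starting at 40) in each Sham and UNx library for all coding genes, 4 comparison groups, the replication-dependent histones and their 5 classes, with the number of regions in brackets. Histones and their non-histone neighbours lie below the other groups in all 6 libraries, and classes that share divergent regions are not independent of one another.

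Histone genes were also less often among the strongest peaks. Of the histone genes 20.9% to 28.4% had a promoter peak among the 20000 strongest of a list, against 41.7% to 45.3% of coding genes. Among the 20000 strongest peaks of each list, 14, 16 and 15 histone genes had a promoter peak in Sham and 17, 19 and 18 in UNx. The UNx counts all lay above the Sham counts, by 3 genes on average. For all protein-coding genes the counts were 9425, 9545 and 9530 in Sham and 9378, 9138 and 9932 in UNx, which overlapped. Of 12 genes that entered in some lists only, 8 entered in more UNx than Sham lists, 2 in more Sham lists and 2 in as many of each. The same split was not counted over all coding genes at this list length. In the full lists, 787 coding genes had a peak in more UNx than Sham lists and 463 in more Sham lists. The 12 genes are not separate promoters, since Hist1h2bl and Hist1h2ai share a region. Hist1h3c entered through the Hist1h2bb summit, which lay beyond its 1 kb window in Sham 1, and Hist1h4j through the region upstream of its start. Hist1h4h entered in Sham 1 and all UNx lists, in UNx 1 only through the region beyond the end of the gene. Hist4h4 entered in UNx 3 alone, where its strongest summit lay inside the gene, and Hist1h3e in UNx 1 and UNx 3. Hist1h1a entered in Sham 1 alone and Hist1h4d in Sham 2 alone, while Hist1h3g and Hist1h4b were split evenly. This count was 1 of several settings tried and was given no test.

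Genes related to the family by function or place were read from lists chosen with earlier results known. For comparison with the counts that follow, 1665 of 12195 protein-coding promoter regions had an unadjusted p under 0.05 in limma. Of the same regions, 51 passed the test after adjustment. Of 11 replication-independent histone genes, which supply histones outside S phase, 10 had a peak in all 6 lists, with a median rank of 92.3. None passed the limma test and 1 had an unadjusted p under 0.05. The 2 of smallest p were H2afy2, a macroH2A gene (difference −11.5, limma adjusted p = 0.159), and H1f0, a linker histone of resting cells (−12.8, adjusted p = 0.293). Of 26 histone supply factors, 25 had a peak in all 6 lists with a median of 93.7, among them Npat, Slbp and Casp8ap2. Of these 25, 0 passed the limma test and 5 had an unadjusted p under 0.05. The smallest p belonged to Cstf2, a cleavage factor (−6.33, limma adjusted p = 0.0991), and Cdk2, the cyclin E partner (−5.41, adjusted p = 0.144).

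Of 14 genes of cycling cells, 13 had a peak in all 6 lists, and 0 passed the limma test, with 3 at an unadjusted p under 0.05. Mcm2, of the replicative helicase, was lower in UNx (−15.1, limma adjusted p = 0.0666) and Plk1, a mitotic kinase, was higher (13.8, adjusted p = 0.119), and neither passed. H2afx and Hinfp, which lie in 1 gap of 124 kb without an interval, and Rrm2, in a gap of 110 kb, had no summit within 1 kb in the lists used here. The 49 non-histone genes inside the histone clusters had a peak in all lists in 10 cases and in none in 37, of which 36 were vomeronasal receptor genes. The median rank of the 12 with a region was 63.9, close to that of the histones between them. Of these, Prss16 (12.2, limma adjusted p = 0.417) and Pom121l2 (13.7, adjusted p = 0.438) had the smallest p, and none passed or had an unadjusted p under 0.05.

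The labelled tissue was checked by promoter peaks at marker genes. All 7 genes listed for S1 proximal tubule (Slc5a2, Slc5a12, Slc34a1, Lrp2, Cubn, Hnf4a and Slc4a4) had a peak in all 6 lists. Their median rank was 89.9. Not all of them are confined to S1, so these peaks alone do not tell S1 from S2 and S3. Of 4 markers of the S2 and S3 segments 1 had a peak in all lists, as did 3 of 7 markers of other nephron segments and 2 of 7 of non-epithelial cells. The mean ranks of the S2 and S3 markers with a region were 2.02 (Slc5a1), 15.9 (Slc7a12) and 58.4 (Slc22a7). Of the other segments, Slc12a1 had a mean rank of 43.6 and Umod of 67.4, and the 5 of non-epithelial cells were below 5 except Col1a1 at 65.1. Slc7a13, Slc12a3, Aqp2, Slc4a1, Ptprc and Pdgfrb had no summit. Some markers ranked lower in every UNx library than in any Sham library: Slc7a12 (difference −28.6), Slc12a1 (−26.5), Slc22a7 (−16.5), Col1a1 (−8.17), Cubn (−6.64) and Lrp2 (−3.45). These were 2 of 7 tested regions of the S1 list and 2 of 2 of S2 and S3. They also included 1 of 4 of other segments and 1 of 2 of non-epithelial cells. In 0 marker regions the UNx values all lay higher. Over all tested regions, 11.7% lay lower in this way and 12.0% higher, and over protein-coding promoter regions 10.7% and 9.50%. None of the markers passed the limma test (adjusted p from 0.132 upwards), and 5 had an unadjusted p under 0.05. Of protein-coding promoter regions, 1665 of 12195 had such a p. The part of these shifts, some larger than those at histone promoters, in the histone values was not tested. The lists held 77355 to 100999 intervals, fewest in Sham 2, with a median −log10 q of 12.1 to 26.5, and their sequencing depth is unknown, there being no read counts. In bulk tubules, a change in the share of a cell type and a change in accessibility per cell cannot be told apart.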

How the data were processed

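ATAC-seq peaks of 3 Sham and 3 UNx libraries were used as deposited, as 1 narrowPeak list per library. Peaks were therefore called per library, without pooling. The submitters' processing notes name the build mm10, cutadapt 3.4, Bowtie, SAMtools, Picard and MACS2 2.2.7.1; settings and the filter applied are not given in the sources used here. For each summit the authors deposited a fold enrichment (ratio over background), a −log10 p, a −log10 q and a display score. These values rise with depth, which is unknown, so they served only to rank peaks within a list, and no interval that needs depth is given.

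From the lists, each distinct interval took its strongest summit, and each list was reduced to its 77355 strongest intervals by −log10 q, the length of the shortest list. Ranks became percentiles (100 strongest, 0 not listed). Overlapping intervals (1 bp or more) gave 99340 merged regions, of which the 74774 in at least 3 lists were tested with limma 3.58.1 in R 4.3.3 (eBayes with trend and robust options, two-sided, threshold 0.05 after Benjamini-Hochberg adjustment over all tested regions). A gene's region was the one of highest mean rank among regions with a summit within 1 kb of a GENCODE M21 start. The fit was tested on simulated ranks.

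Groups came from the sample titles. Members, lists, motifs and tests were chosen with earlier results of these data known. Named were members past the threshold, in each class the regions of smallest p, highest and lowest rank, members without a peak in every list, the Hist2h, Hist3h and Hist4h genes, the testis genes, and in each other list the 2 genes of smallest p. Hist1h3e, Hist1h4i, Hist1h4j, Hist1h2ab and the regions whose groups did not overlap were added after their values were seen. Alternatives covered list length, ranking, filters, windows, region building, variance models, GC, the replicate number as a block and leaving out each library.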

Additional observations from a re-analysis of the deposited data

How the results depend on the processing

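Of 29 histone regions, 0 passed the threshold in the reported fit and in all alternatives but array weights, which called 1 (Hist3h2a). The count over all regions, 604, was far less stable: 22 with all deposited peaks, 2 with the 20000 strongest, 264 with each summit as a peak, 3 when ranked by fold enrichment, 2 without the filter on lists, 949 with normal scores, 1457 with array weights, 2 with GC-corrected ranks and 143 with a reciprocal overlap of 50%. Leaving out 1 library gave 31 (without UNx 1) to 368 (without UNx 2), and the cause was not tested. The median difference of the histone regions stayed between −0.42 and 2.47 percentile points except with the 20000 strongest peaks (11.4 over 11 regions, fewer being tested), where the difference in genes with a peak was 3 per list. The level of histone promoters below others was −12.6 with a window of 2.5 kb, −20.9 with a −log10 q of at least 5 and −5.96 with GC-corrected ranks. Some differences turned direction. Hist1h4i, −10.9 as reported, was 2.95 with the 2.5 kb window, where the region of Hist1h2ag and Hist1h2bj stands for it. Hist1h1c was −0.53 by fold enrichment, −0.43 with GC-corrected ranks and ran from −0.17 to 2.58 with 1 library left out. Hist3h2ba was 2.77 by fold enrichment, and with 1 library left out it ran from −11.7 to 4.47 (above 0 without Sham 2 and without UNx 1). Hist1h2bf ran from −11.0 to 1.54 in the same way (above 0 without Sham 3 and without UNx 1). RefSeq starts and the region over the start were chosen after seeing the data and called 0 histone regions.

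Libraries with the same number did not deviate together (r = 0.00825, −0.0997 and −0.0493), which gives no sign that numbers mark pairs. A fit with a replicate block passed 56 regions in all, and 0 with GC-corrected ranks as well, where Hist1h1c was −0.43. The block called 0 histone regions and left their median at 0.883.

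Limits: ranks show order within a list, not signal, and unknown depth limits which weak peaks were called. Regions shared by divergent genes cannot be assigned to 1 of them. Repeated histone copies can lose reads that map to several places, and how the authors treated these is not given in the sources used here.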
